A study of Mus musculus with 13 samples.

Results

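Messenger RNA levels of 10 enzymes that make pyrimidines and deoxynucleotides, Dhodh, Cad, Umps, Tyms, Tk1, Rrm1, Rrm2, Dck, Dut and Uck2, were compared by RNA sequencing of pancreas from 13 female mice. The members were listed by gene symbol and found in the deposited expression table through their Entrez identifiers, and all 10 were among its 23366 genes. The young group held 4 mice of 13 weeks and the old group held 5 mice of 55 weeks, and both were untreated. The old-OSKM group held 4 mice that received doxycycline for 7 days from the age of 55 weeks and had 2 weeks of recovery, and the labels give their age at sampling as 58 weeks. According to the study's methods, all groups were of the reprogrammable i4F-B line, in which a ubiquitous cassette of Oct4, Sox2, Klf4 and Myc, switched on by doxycycline, is inserted in the Pparg gene. The untreated mice carried the cassette but received no doxycycline, so the factors, the drug and the 3 additional weeks of age cannot be told apart. Each mouse gave 1 library of whole pancreas, and the cassette is described as being expressed more broadly in acinar than in endocrine cells.

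Cells obtain pyrimidine nucleotides along 2 routes. In de novo synthesis, CAD carries out the opening steps from glutamine, bicarbonate and aspartate, DHODH oxidises dihydroorotate at the inner mitochondrial membrane and hands its electrons to ubiquinone, and UMPS converts orotate to UMP, while in salvage UCK2 phosphorylates uridine and cytidine. Deoxynucleotides come from ribonucleotide reductase, whose large subunit is RRM1 and whose S-phase small subunit is RRM2, and DUT and TYMS then lead from dUTP to the thymine nucleotide dTMP. TK1 and DCK recover thymidine and deoxycytidine. The adult pancreas is mostly made of secretory acinar cells that rarely divide, and transcripts of Tk1, Tyms, Rrm1 and Rrm2 are known to be most abundant in dividing cells.

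The tissue label was checked against 12 acinar markers, whose summed RPKM was between 13.72 and 13.77 on the log2 scale in all 13 mice. RPKM divides a gene's reads by transcript length and by the mapped reads of the library, so levels can be set side by side between genes. The table gives log2 RPKM after quantile normalisation and holds no read totals, so the depth behind each value is unknown. Quantile normalisation gives all mice nearly the same sorted values, so a sum dominated by very abundant genes can hardly vary. The narrow range of the acinar sum therefore does not show equal acinar content between mice. One library stood apart. Old-OSKM mouse 4 had a correlation of 0.901 with the mean of the rest of its group over the 8410 genes with a mean log2 RPKM above 0, whereas the other 12 mice had between 0.972 and 0.992, and 469 genes lay more than 2-fold from the rest of its group against 7 to 93 in the other mice. Its islet, endothelial and fibroblast marker sums, 8.99, 5.09 and 6.35 on the log2 scale, were above those of the other 12 mice. So were its duct sum, 5.63, its adipocyte sum, 3.86, and its erythroid and blood sum, 6.71. For named genes, the difference between old-OSKM and old mice is therefore also given without it where it changed by more than 1.5-fold or a call changed. In whole tissue, fewer cells that express a gene and less RNA per cell cannot be told apart.

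To show the regions upstream of the 4 members known for high transcript levels in dividing cells, the 200 bases before the annotated start of Rrm2, Rrm1, Tk1 and Tyms are printed below, from RefSeq on GRCm38.p6, the assembly of mm10. Of the 10 genes, 9 had an entry in the promoter table used here, and Dhodh had none. For Tk1 and Tyms the start in that table lies inside the gene positions given below, so part of each printed stretch overlaps the gene. Capitals mark matches to the motifs searched on both strands. The E2F motif was searched as TTGGCGC, as well as in its variant TTCCCGC, in the variant TTCGCGC and in the variant TTGCCGC. The E box was searched as CACGTG, the cell cycle element CHR as TTTGAA, the CCAAT box by its own letters and the GC box as GGGCGG.
Rrm2, chr12:24708054-24708253, forward strand: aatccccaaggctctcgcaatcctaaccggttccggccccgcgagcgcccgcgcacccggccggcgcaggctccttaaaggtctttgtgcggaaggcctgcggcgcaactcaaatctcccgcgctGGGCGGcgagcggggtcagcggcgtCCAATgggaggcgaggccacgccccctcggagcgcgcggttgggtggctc
Rrm1, chr7:102441495-102441694, forward strand: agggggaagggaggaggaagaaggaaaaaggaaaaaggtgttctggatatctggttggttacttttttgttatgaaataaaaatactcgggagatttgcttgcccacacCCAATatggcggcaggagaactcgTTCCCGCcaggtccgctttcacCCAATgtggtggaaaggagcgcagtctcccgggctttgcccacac
Tk1, chr11:117826015-117826214, reverse strand: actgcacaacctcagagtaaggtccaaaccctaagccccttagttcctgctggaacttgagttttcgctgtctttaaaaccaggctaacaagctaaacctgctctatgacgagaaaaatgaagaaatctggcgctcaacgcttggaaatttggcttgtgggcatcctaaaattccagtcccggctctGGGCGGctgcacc
Tyms, chr5:30073626-30073825, reverse strand: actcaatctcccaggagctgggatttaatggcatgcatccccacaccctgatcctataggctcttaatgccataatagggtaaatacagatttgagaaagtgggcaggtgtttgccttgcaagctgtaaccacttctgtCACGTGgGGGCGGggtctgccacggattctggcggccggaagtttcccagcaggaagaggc
In windows from 250 bases before to 50 bases after the start, E2F letters occurred in 3 of 9 members and in 9.6% of 32851 promoters. Counted from the start, they lay at positions -67 to -61 in Rrm1, at -235 to -229 in Rrm2, upstream of the printed stretch, and at 37 to 43 inside the transcript in Cad. The GC box was found in 8 of 9 members against 35.7% of all promoters, CCAAT in 3 of 9 against 37.4%, CHR in 3 of 9 against 17.9%, and the E box in 1 of 9, Tyms, against 7.2%. In Tyms the E box and a GC box are separated by 1 base, and Tk1 held a GC box alone among the motifs searched. The Tk1 stretch lies within Afmid, a gene on the opposite strand that shares 585 bases with Tk1.

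The salvage kinase Uck2 had the highest level of the 10 genes. Its mean over 13 mice was 2.75 log2 RPKM (SD 0.16), or 6.71 RPKM, at percentile 96.7 of all genes in the table. Cad followed at 1.40 (SD 0.26) and Umps at 1.22 (SD 0.14), and Cad was the higher of these 2 in 11 of 13 mice. Rrm2 averaged 0.21 (SD 0.63), Dut -0.09 (SD 0.24), Rrm1 -0.14 (SD 0.18) and Dhodh -0.34 (SD 0.18). The lowest 3 were Dck at -0.48 (SD 0.18), Tyms at -0.50 (SD 0.20) and Tk1 at -0.53 (SD 0.47). The steps from Uck2 to Cad and from Umps to Rrm2 held in all 13 mice, but the order of Dut and Rrm1, and that of Dhodh, Dck, Tyms and Tk1, was not distinguishable from the spread between mice, since the upper gene of each neighbouring pair was higher in only 5 to 8 of 13 mice. The whole range spanned 9.66-fold. By level, 4 of the 10 genes had a mean above 0 on the log2 scale, beside 36% of all genes.

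**Figure D1:**
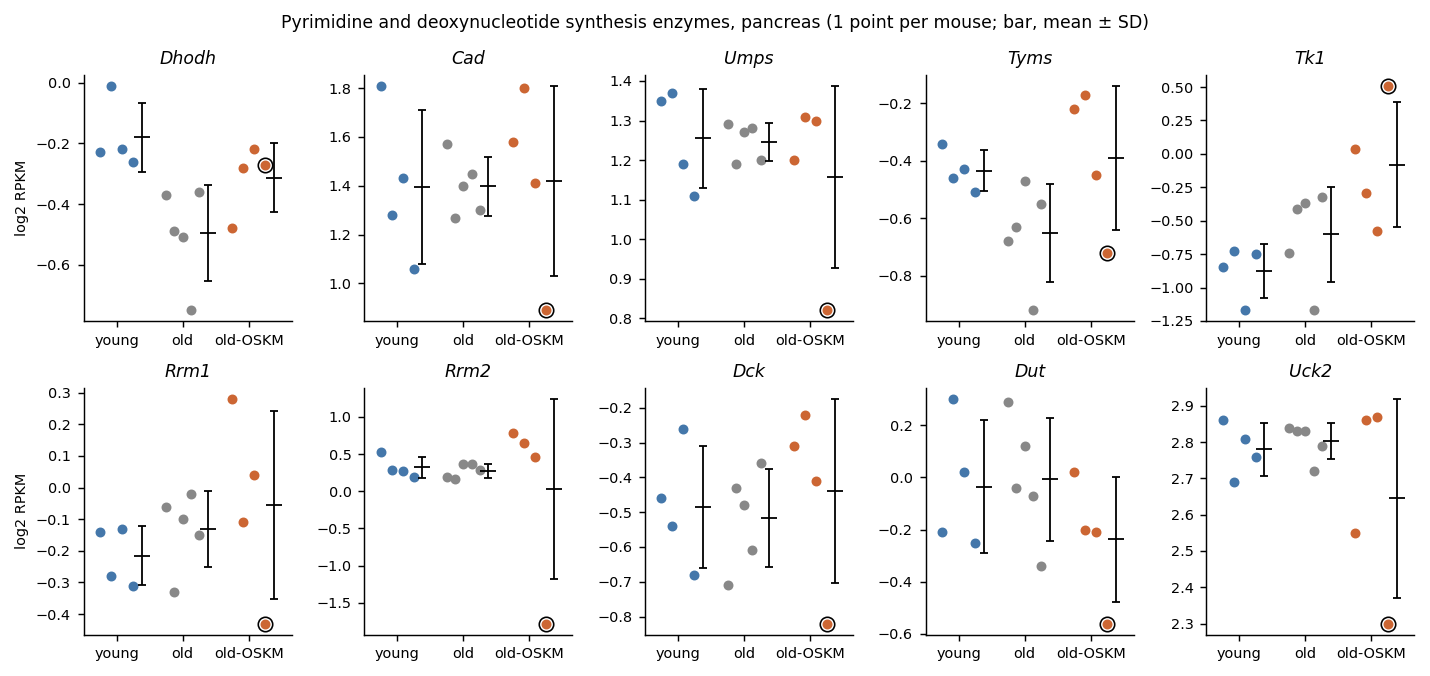
Log2 RPKM of the 10 enzymes in each mouse by group (1 point per mouse, black bars show mean ± SD, and each panel has its own vertical scale). The circled point is old-OSKM mouse 4, which was the lowest of 13 mice for Cad, Umps, Rrm1, Rrm2, Dck, Dut and Uck2 and the highest for Tk1.

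In the de novo genes, the clearest difference with age was in Dhodh. The gene (Entrez 56749) lies on chromosome 8 at 109593244 to 109608699 of mm10. It measured -0.23, -0.01, -0.22 and -0.26 log2 RPKM in young mice and -0.37, -0.49, -0.51, -0.75 and -0.36 in old mice. All 5 old mice lay below all 4 young mice. The difference of -0.32 (SE 0.089), 1.25-fold lower in old mice, had an adjusted p of 0.47 over all genes by limma, and an exact permutation test of both groups gave p = 0.0079, the smallest p that this design allows. Adjusted over the 30 exact permutation tests of the members, that p was 0.24. The raw p of limma was under the study's 0.01, but the fold change was below the 1.5-fold that the study also requires. Markers of other cells also differed with age. Of 8 fibroblast markers, 4 were lower in old mice at a raw p under 0.05, beside 2.52% of all genes, with log2 sums of 4.91 to 5.89 in young and 4.49 to 4.85 in old mice. Of 7 B and plasma cell markers, 3 were higher in old mice, beside 3.0% of all genes, with sums of -0.03 to 1.47 in young and 1.52 to 3.13 in old mice. Their part in the difference of Dhodh was not tested. Dhodh in old-OSKM mice measured -0.48, -0.28, -0.22 and -0.27, so that 3 of them were above all 5 old mice and 1 was among them. Their mean of -0.31 (SD 0.11, n = 4) was 0.18 (SE 0.089) above the old mean (adjusted p = 0.55, limma) and differed from the young mean by -0.14 (adjusted p = 0.71, limma), and neither difference passed the test. Both comparisons with old mice use the same 5 animals. A mouse that stands high or low in that group therefore moves both differences, in opposite directions.

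Cad (Entrez 69719, chromosome 5 at 31054620 to 31078479) did not follow Dhodh. Young mice measured 1.81, 1.28, 1.43 and 1.06 log2 RPKM, old mice 1.57, 1.27, 1.40, 1.45 and 1.30, and old-OSKM mice 1.58, 1.8, 1.41 and 0.89. The group means were 1.40 (SD 0.32), 1.40 (SD 0.12) and 1.42 (SD 0.39), and the young mice alone ranged from 1.06 to 1.81. Umps (Entrez 22247, chromosome 16 at 33954782 to 33967038) measured 1.35, 1.37, 1.19 and 1.11 in young, 1.29, 1.19, 1.27, 1.28 and 1.20 in old and 1.20, 1.31, 1.30 and 0.82 in old-OSKM mice. The value of 0.82 belonged to old-OSKM mouse 4, and the other 12 mice lay between 1.11 and 1.37. Neither gene had an adjusted p below 0.67 in any comparison by limma. Without old-OSKM mouse 4, old-OSKM minus old went from 0.02 to 0.20 for Cad and from -0.09 to 0.02 for Umps, and neither passed the test.

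Of the salvage kinase Uck2 (Entrez 80914, chromosome 1 at 167222895 to 167285933), young mice had 2.86, 2.69, 2.81 and 2.76 log2 RPKM, old mice 2.84, 2.83, 2.83, 2.72 and 2.79, and old-OSKM mice 2.55, 2.86, 2.87 and 2.3. The untreated mice lay between 2.69 and 2.86, and both values below that range were in the old-OSKM group. The difference between old-OSKM and old mice, -0.16 (SE 0.10), did not pass the test (adjusted p = 0.61, limma), and without old-OSKM mouse 4 it was -0.04. A pseudogene, Gm51816, and a long non-coding RNA, Gm46170, are annotated inside Uck2, and how their reads were assigned is not given in the sources used here.

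Among the deoxynucleotide genes, Tk1 gave the largest differences. The gene (Entrez 21877) lies on chromosome 11 at 117815519 to 117826087. It measured -0.85, -0.73, -1.17 and -0.75 log2 RPKM in young mice, -0.74, -0.41, -0.37, -1.17 and -0.32 in old mice and 0.04, -0.29, -0.58 and 0.51 in old-OSKM mice. All 4 old-OSKM mice were above all 4 young mice, and old mice overlapped with both. Old-OSKM exceeded young by 0.80 (1.74-fold) (adjusted p = 0.71, limma). This passed the study's thresholds on fold change and raw p, as 0.625% of all genes did, but not without old-OSKM mouse 1 or 4 or without young mouse 1, 3 or 4, each left out alone. The exact permutation test gave p = 0.029, the smallest p that 4 against 4 mice allow, and an adjusted p of 0.43 over the 30 such tests of members. Old-OSKM exceeded old by 0.52 (SE 0.23, adjusted p = 0.55, limma), while old and young differed by 0.28 (SE 0.23, adjusted p = 1.0, limma). The highest Tk1 value was that of old-OSKM mouse 4. Without that mouse, old-OSKM exceeded young by 0.60 (adjusted p = 0.72, limma), 1.52-fold and no longer under a raw p of 0.01, and the difference from old was 0.33 (adjusted p = 0.80, limma), which did not pass. The overlapping gene Afmid, which encodes arylformamidase, averaged -1.51 (SD 0.48) in young, -1.44 (SD 0.67) in old and -1.77 (SD 0.86) in old-OSKM mice. In old-OSKM mouse 4, the mouse with the highest Tk1, Afmid was -0.81 against -2.09 on average in the other 3 old-OSKM mice, and the part of its reads in the Tk1 values was not tested. The library kit is not described as marking strand, so reads of the shared bases cannot be assigned to either gene by strand.

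Tyms (Entrez 22171, chromosome 5 at 30038546 to 30073645) was lowest in old mice on average. Young mice measured -0.34, -0.46, -0.43 and -0.51 log2 RPKM, old mice -0.68, -0.63, -0.47, -0.92 and -0.55, and old-OSKM mice -0.22, -0.17, -0.45 and -0.72. One old mouse reached into the young range, and old-OSKM mice 1 to 3 were above all 5 old mice. Old minus young was -0.21 (adjusted p = 1.0, limma). The old-OSKM mean was 0.26 (SE 0.12) above the old mean (adjusted p = 0.55, limma), with a raw p under 0.05. Without old-OSKM mouse 4 this difference was 0.37 (SE 0.10, adjusted p = 0.60, limma), and the one between old and young mice, which shares the estimate of the spread, came under a raw p of 0.05 (adjusted p = 0.63, limma), as 7.7% of all genes did. A pseudogene of Tyms, Tyms-ps, is annotated on chromosome 10, and reads that fit both cannot be assigned with certainty.

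Of the 2 subunits of ribonucleotide reductase, Rrm2 depended most on old-OSKM mouse 4. Rrm2 (Entrez 20135, chromosome 12 at 24708254 to 24714146) measured 0.53, 0.29, 0.27 and 0.19 log2 RPKM in young mice, 0.19, 0.16, 0.36, 0.36 and 0.28 in old mice and 0.78, 0.65, 0.46 and -1.78 in old-OSKM mice. Old-OSKM mice 1 to 3 were above all 5 old mice, and mouse 4 was far below all others. Over all mice the difference between old-OSKM and old was -0.24 (SE 0.42, adjusted p = 0.78, limma). Without mouse 4 its direction turned, to 0.36 (SE 0.092, adjusted p = 0.60, limma). Against young mice it was -0.29 with all mice and 0.31 without mouse 4 (adjusted p = 0.61, limma).

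Rrm1 (Entrez 20133, chromosome 7 at 102441695 to 102469771) measured -0.14, -0.28, -0.13 and -0.31 in young, -0.06, -0.33, -0.10, -0.02 and -0.15 in old and 0.28, -0.11, 0.04 and -0.43 in old-OSKM mice. Mouse 4 again had the lowest value of the 13, by a smaller margin than in Rrm2. The difference between old-OSKM and old was 0.08 (adjusted p = 0.75, limma) with all mice and 0.20 (adjusted p = 0.80, limma) without mouse 4. Without it, old-OSKM mice 1 to 3 were all above the 4 young mice and exceeded them by 0.29 (adjusted p = 0.71, limma).

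Dck (Entrez 13178, chromosome 5 at 88765013 to 88783277) and Dut (Entrez 110074, chromosome 2 at 125247248 to 125259049) showed no difference past the test. Dck measured -0.46, -0.54, -0.26 and -0.68 in young, -0.71, -0.43, -0.48, -0.61 and -0.36 in old and -0.31, -0.22, -0.41 and -0.82 in old-OSKM mice, so the treated group held the 1 highest and the 1 lowest value of all mice. Dut, which removes dUTP and so supplies the substrate of TYMS, measured -0.21, 0.30, 0.02 and -0.25 in young, 0.29, -0.04, 0.12, -0.07 and -0.34 in old and 0.02, -0.20, -0.21 and -0.56 in old-OSKM mice. The groups overlapped broadly in both genes. Old-OSKM minus old was 0.08 (SE 0.13) for Dck and -0.23 (SE 0.15, adjusted p = 0.61, limma) for Dut. These were 0.20 and -0.12 without old-OSKM mouse 4, and neither passed the test.

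Counted together, 1 of the 10 enzymes had a raw p under 0.05 between old and young mice, Dhodh, beside 5.52% of all genes, and 0 passed the study's thresholds, beside 0.886%. Groups that did not overlap were found for 1 member, beside 2.71% of all genes. Between old-OSKM and old mice, 2 of 10, Tk1 and Tyms, had a raw p under 0.05, both higher in old-OSKM, beside 8.07% of all genes in either direction and 3.98% higher. By exact permutation tests these had p = 0.095 and 0.13, and without old mouse 4, the lowest of the old mice for Dhodh, Tyms and Tk1, neither had a raw p under 0.05 by limma. With each of the 13 mice left out in turn, the call of Tyms was lost 10 times and that of Tk1 5 times. Again 0 passed the study's thresholds, beside 0.753%, and 0 had groups apart, beside 1.73%. Between old-OSKM and young mice it was 1 of 10, Tk1, beside 5.07%, and its groups did not overlap, beside 1.9%. In the 3 comparisons, 0 members had an adjusted p under 0.05 by limma, where 0.0813%, 0.00428% and 0.0428% of all genes did. The median log2 difference over the members was 0.00 between old and young, 0.05 between old-OSKM and old and -0.04 between old-OSKM and young mice, while over all genes it was 0.00, -0.04 and -0.04.

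Without old-OSKM mouse 4 the members called between old-OSKM and old mice were Rrm2 and Tyms, beside 6.23% of all genes. Their old-OSKM values were also those that lay above all old mice, 2 of 10 members beside 1.9% of all genes higher without overlap, and against young mice it was Tk1 and Rrm1, beside 2.36%. The median over the members was 0.20 in place of 0.05, and 8 of 10 were higher in old-OSKM. Over all genes the median without that mouse was -0.02 in place of -0.04, and 37.2% of genes were higher in place of 36.9%. The count is not particular to the 10 enzymes. In the same fit 8 of 9 genes of UTP and CTP formation and 12 of 14 further deoxynucleotide genes were higher. So were 8 of 13 purine synthesis and 16 of 17 proliferation genes, but 6 of 14 salvage and 7 of 15 breakdown genes. Against young mice the members called were Tk1, Rrm1 and Rrm2, 3 of 10 beside 5.81% of all genes. Leaving out old-OSKM mouse 1 instead left Tk1 against young, at 0.76 (adjusted p = 0.82, limma), beside 4.15% of all genes, and Dhodh against old, at 0.24 (adjusted p = 0.77, limma), beside 4.44%, as the called members.

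**Figure D2:**
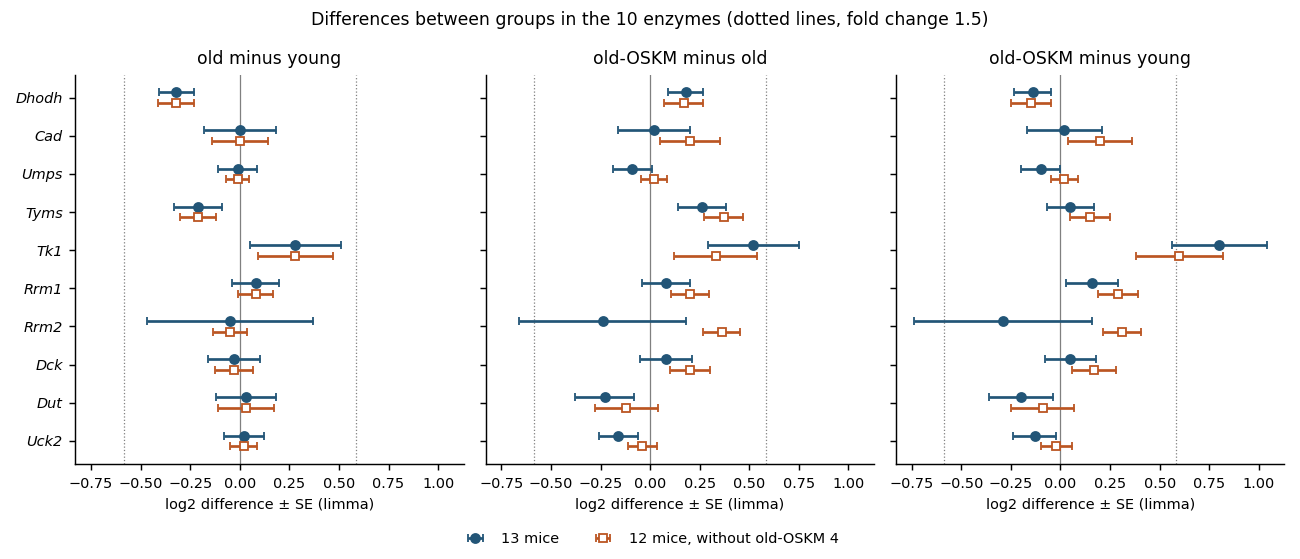
Log2 differences between groups for the 10 enzymes, with standard errors from limma, over 13 mice (filled circles) and without old-OSKM mouse 4 (open squares). Dotted lines mark a fold change of 1.5, which Tk1 alone passed, at 0.80 between old-OSKM and young mice with all mice and 0.60 without mouse 4, and Rrm2 changed its side of 0 without that mouse.

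Old-OSKM mouse 4 had the lowest value of the 13 mice for 7 of the 10 enzymes. This has to be read beside 36.2% of the genes with a mean log2 RPKM above 0 and 44.7% of all genes, for which it was also the lowest. It was the highest for 1 enzyme, Tk1, beside 24.0% and 16.0% of the same genes. In the same mouse, 10 of the 13 purine synthesis genes, 8 of 14 further deoxynucleotide genes and 5 of 9 genes of UTP and CTP formation were the lowest, but 2 of 14 salvage genes were. The largest gap was in Rrm2, at -1.78 against 0.63 on average in the other 3 old-OSKM mice, a difference of -2.41. The same difference was -0.71 for Cad and -0.46 for Umps, whereas it was 0.79 for Tk1 and 0.06 for Dhodh. In this mouse 7 of 10 islet, 6 of 8 fibroblast and 6 of 7 endothelial markers were the highest of all mice. The same held for 4 of 7 duct and 3 of 6 erythroid and blood markers, but for 1 of 6 adipocyte markers. The part of these markers in the values of the enzymes was not tested.

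Old-OSKM mouse 1 had the highest Rrm1 and Rrm2 values. In that mouse, marker sums of T cells and macrophages were above those of the other 12 mice, at 3.0 and 5.12 on the log2 scale. Proliferation genes summed to 4.16 there, against 3.19 to 3.74 in the others, and B and plasma cell markers to 3.85, against at most 3.13. Dhodh, however, was lowest of its group in that mouse. Across the group, 6 of 8 macrophage markers and 4 of 8 fibroblast markers were higher in old-OSKM than in old mice at a raw p under 0.05, beside 3.98% of all genes. So were 2 of 6 adipocyte markers. Of 10 islet markers, 0 had a higher mean and 1 was lower at that p, beside 8.07% of all genes in either direction. Macrophage sums ranged from 3.15 to 3.92 in old and from 3.66 to 5.12 in old-OSKM mice, and fibroblast sums from 4.49 to 4.85 and from 4.85 to 6.35. Against young mice, 5 of 7 B and plasma cell markers and 4 of 8 T cell markers were higher, beside 2.91% of all genes. B and plasma cell sums ranged from -0.03 to 1.47 in young and from 1.97 to 3.85 in old-OSKM mice, and T cell sums from -0.15 to 0.61 and from 0.43 to 3.0. The part of these markers in the differences of Tk1, Tyms and Rrm2 was not tested.

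Some of these enzymes have a partner that catalyses a related step, and the ratio within a mouse sets the 2 levels against each other. Mitochondrial thymidine kinase, Tk2, was above Tk1 in 13 of 13 mice, with a mean log2 ratio of Tk1 to Tk2 of -1.49 (SD 0.40). Mitochondrial deoxyguanosine kinase, Dguok, was above Dck in 13 of 13, with a mean log2 ratio of Dck to Dguok of -1.08 (SD 0.31). Uck2 exceeded Uck1 in 13 of 13 mice, by 2.80 (SD 0.36). Uckl1, a relative of both, averaged -0.16 (SD 0.25) in young, 0.07 (SD 0.19) in old and -0.22 (SD 0.35) in old-OSKM mice. Rrm2b, the p53-induced small subunit of ribonucleotide reductase, stood close to Rrm2, with Rrm2 higher in 7 of 13 mice and a mean log2 ratio of -0.03 (SD 0.66).

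Tk1 came closest to Tk2 in the old-OSKM group. The log2 ratio of Tk1 to Tk2 was -1.54, -1.72, -2.04 and -1.87 in young mice, between -2.21 and -1.23 in old mice and -0.85, -1.10, -1.54 and -1.02 in old-OSKM mice. Old-OSKM minus young was 0.66 with p = 0.057 by an exact permutation test and an adjusted p of 0.48 over 15 tests, so it did not pass. Rrm1 was below Rrm2 in 12 mice, with ratios between -0.77 and -0.26, and above it in old-OSKM mouse 4, at 1.35. In the same mouse the ratio of Rrm2 to Rrm2b was -2.07, against 0.18 to 0.68 in the other 3 old-OSKM mice, while Rrm2b itself, at 0.29, was within the range of the other mice. Of the 15 tests of pairs between groups, the lowest adjusted p was 0.48.

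**Figure D3:**
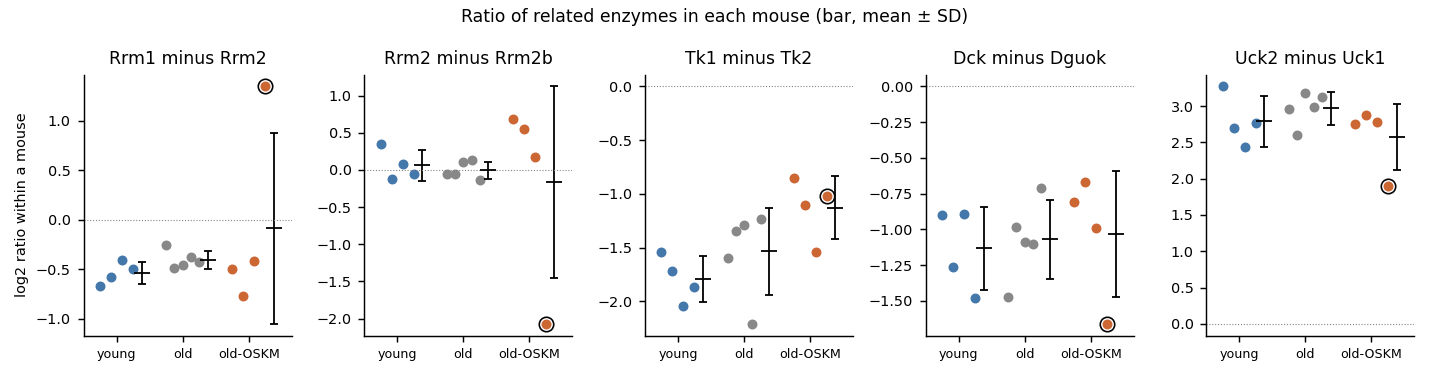
Log2 ratios of related enzymes within each mouse by group (1 point per mouse, bars show mean ± SD, the dotted line marks equal levels, and old-OSKM mouse 4 is circled). Tk1 was below Tk2 and Dck below Dguok in all 13 mice, and old-OSKM mouse 4 departed from its group in the ratios that contain Rrm2 and in Uck2 to Uck1.

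Over the 13 mice, 3 of the 45 pairs of members correlated with an adjusted p under 0.05 by Pearson's r and 0 by Spearman's rho, from permutation tests adjusted over the pairs. Cad and Rrm2 had r = 0.73 (permutation p = 0.00049, adjusted p = 0.022) and rho = 0.79 (permutation p = 0.0023, adjusted p = 0.09), with r = 0.68 without the 2 mice farthest from the median of Cad, old-OSKM 4 and young 1. Cad and Umps had r = 0.75 (permutation p = 0.0019, adjusted p = 0.03) and rho = 0.57 (permutation p = 0.048, adjusted p = 0.26), with r = 0.48 without the same mice. Rrm2 and Dck had r = 0.67 (permutation p = 0.002, adjusted p = 0.03) and rho = 0.56 (permutation p = 0.049, adjusted p = 0.26), with r = 0.52 without the 2 farthest mice, which were old-OSKM 4 and 1. Without old-OSKM mouse 4, r was 0.69, 0.58 and 0.56 in these pairs and 0 of the 45 had an adjusted p under 0.05 by permutation tests, as was also the case without young mouse 1, young mouse 4 or old-OSKM mouse 2. With group means removed, r was 0.76, 0.81 and 0.73 in these pairs.

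In other pairs r changed more without old-OSKM mouse 4. Umps and Rrm2 had r = 0.86 with all mice (adjusted permutation p = 0.11) and 0.29 without it, and Rrm2 and Uck2 went from 0.75 to -0.33. Tk1 and Rrm2, both S-phase genes, had r = -0.53 with all mice and 0.48 without it, and Tk1 and Umps went from -0.63 to -0.15. Dhodh had no r above 0.45 in size with any other member over the 13 mice. Rrm1 and Rrm2 kept r at 0.66 and 0.73, and Tyms and Dck at 0.70 and 0.67 (adjusted permutation p = 0.13 and 0.086 over all mice).

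**Figure D4:**
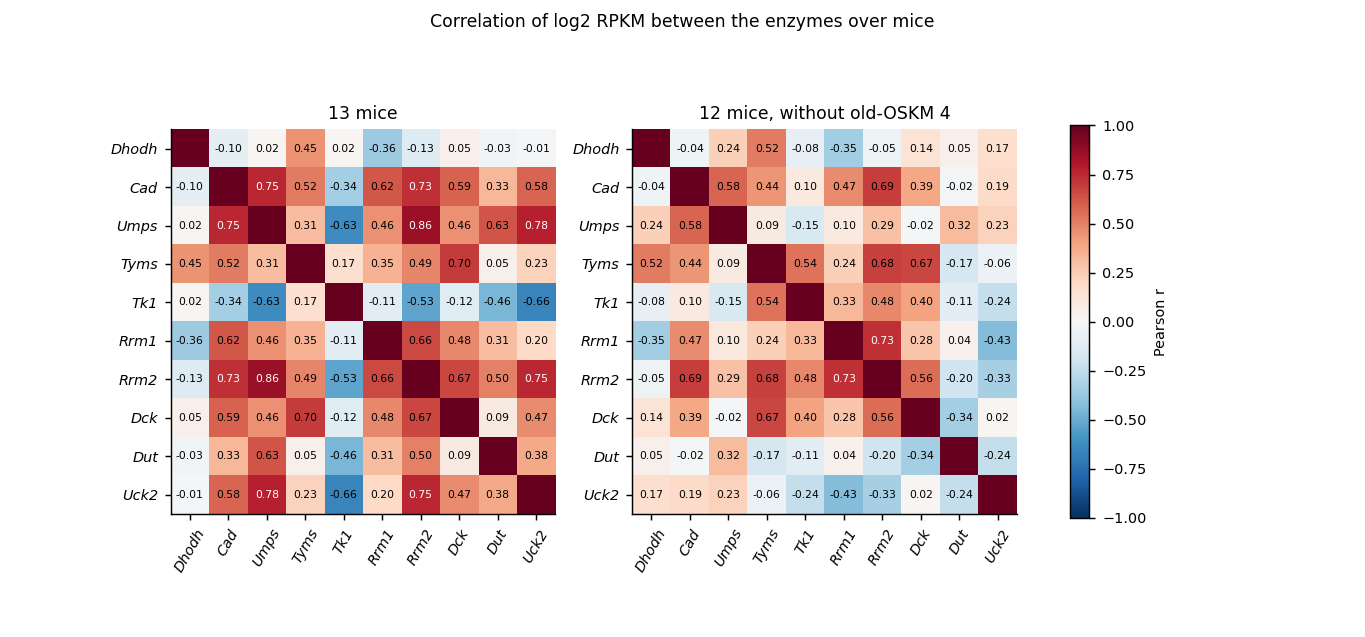
Pearson's r of log2 RPKM between each pair of enzymes over 13 mice (left) and 12 mice without old-OSKM mouse 4 (right), with colours from -1 to 1. The negative correlations of Tk1 with Umps, -0.63, and with Rrm2, -0.53, became -0.15 and 0.48 without that mouse.

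The genes most alike to each enzyme over the 13 mice were sought among 8408 genes with a mean log2 RPKM above 0, by Pearson's r and with no test. For Cad these were Slc35a2 (0.97), Txndc11 (0.963) and the purine synthesis gene Pfas (0.959). For Umps they were Mrps18a (0.973), Dhx32 (0.967) and Decr2 (0.961), and for Dhodh Mospd3 (0.912), Serinc5 (0.879) and Golm2 (0.864). For Rrm2 they were Vmp1 (0.971), Fadd (0.969) and Habp2 (0.968), which without old-OSKM mouse 4 had 0.84, 0.865 and 0.654. For Rrm1 they were Rab11b (0.899), Dmbt1 (0.897) and Lgals9 (0.894), and for Tk1 B4galt6 (0.907), Hps5 (0.903) and Rabgap1l (0.89). Tyms was most alike to Wdr61 (0.866), 3110040N11Rik (0.844) and Mthfs (0.836), a folate enzyme. Dck went with Bet1 (0.918), Copz1 (0.861) and Thyn1 (0.86), Dut with Gper1 (0.86), Acot13 (0.837) and Tmem234 (0.827), and Uck2 with Pip5k1b (0.94) and Hs2st1 (0.938). Without old-OSKM mouse 4, r also fell for other members. It was 0.874 for Umps with Dhx32, 0.792 for Tk1 with Rabgap1l, 0.812 for Uck2 with Pip5k1b and 0.741 for Dut with Tmem234. For Dhodh it stayed at 0.917, 0.879 and 0.865, and it rose to 0.867 for Tyms with Mthfs and to 0.922 for Dck with Bet1. None of these genes most alike to a member is itself one of the 10 enzymes. However, 4 of the 10 have a mean above 0, so the rest could not be found by this search.

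The rest of the pathway was followed in 52 further genes found in the table of 53 listed. Between old and young mice 1 of 52 had a raw p under 0.05, between old-OSKM and old mice 2, and between old-OSKM and young mice 3, beside 5.52%, 8.07% and 5.07% of all genes, and 0 passed the study's thresholds in any comparison.

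Of the 9 genes that form UTP and CTP, Nme7, of the nucleoside diphosphate kinase family, was the one below a raw p of 0.05. It measured -0.29, -0.11, 0.01 and -0.37 in young mice, -0.46, -0.31, -0.44, -0.77 and -1.22 in old mice and -0.12, -0.36, -0.04 and -0.32 in old-OSKM mice. Old minus young was -0.45 (adjusted p = 0.72, limma) and old-OSKM minus old was 0.43 (adjusted p = 0.55, limma), with 2 old mice well below the rest. The call of old minus young was lost without young mouse 3, and that of old-OSKM minus old without old mouse 4, old-OSKM mouse 1 or old-OSKM mouse 3. The CTP synthases Ctps and Ctps2 differed by 0.15 between old-OSKM and old (adjusted p = 0.61, limma) and by 0.10 between old and young (adjusted p = 1.0, limma). Median differences of the list were -0.02 with age and -0.05 between old-OSKM and old. The latter turned to 0.06 without old-OSKM mouse 4, and the difference of Ctps was 0.09.

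In nucleoside salvage, 0 of 14 genes had a raw p under 0.05 between old and young or between old-OSKM and old mice. The smallest raw p belonged to the transporters Slc28a3, at 0.41 between old-OSKM and old (adjusted p = 0.55, limma), and Slc29a1, at 0.34 (adjusted p = 0.55, limma) and, between old and young, -0.26. Slc29a1 was highest of the 13 mice in old-OSKM mouse 4, at 2.14, and its difference from old mice was 0.14 without that mouse. Uprt differed by 0.20 with age (adjusted p = 1.0, limma).

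Among 14 further genes of deoxynucleotide and thymidylate formation, 0 had a raw p under 0.05 between old and young or between old-OSKM and old. Dctd, the dCMP deaminase, differed by -0.50 with age and Shmt1, a folate enzyme, by -0.27 (both with an adjusted p of 1.0 by limma). Samhd1, which degrades dNTPs, differed by 0.34 between old-OSKM and old (adjusted p = 0.61, limma) and was higher in old-OSKM than in young mice by 0.44 (adjusted p = 0.71, limma). This call was lost without any 1 of the 9 young and old mice. Old-OSKM mouse 1 had a Samhd1 level of 2.06, against 0.98, 1.03 and 1.11 in old-OSKM mice 2, 3 and 4. Without mouse 1 the difference of Samhd1 was 0.09 from old mice and 0.18 from young mice. Rrm2b differed by -0.09 between old-OSKM and old (adjusted p = 0.61, limma).

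Of 15 genes of pyrimidine and nucleotide breakdown, the mitochondrial deoxynucleotidase Nt5m was lower in old-OSKM mice, with differences of -0.21 from old mice (adjusted p = 0.55, limma) and -0.33 from young mice (adjusted p = 0.66, limma). The former call was lost without old mouse 2 or 4 or without old-OSKM mouse 1, 3 or 4 (-0.20 without mouse 4), and the latter held with each mouse left out. Tymp, the thymidine phosphorylase, measured -1.84, -1.94, -1.65 and -1.79 in young and -2.72, -2.46, -2.26, -2.14 and -2.15 in old mice. Its 5 old mice were all below the 4 young mice, with a difference of -0.54 that did not pass (adjusted p = 0.95, limma). Old-OSKM minus young was -0.61 (adjusted p = 0.71, limma). This call was lost in 9 of 13 fits with 1 mouse left out. Upb1 differed by -0.54 between old-OSKM and old (adjusted p = 0.61, limma), and by -0.23 without old-OSKM mouse 4.

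**Figure D5:**
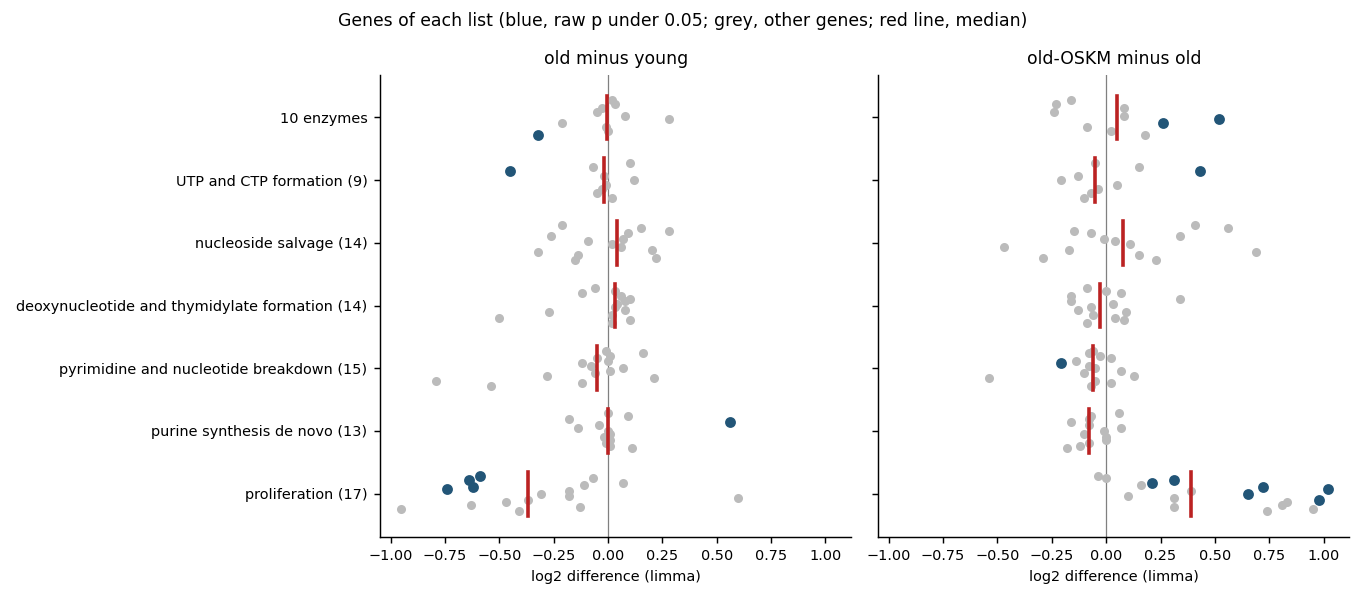
Log2 differences of the genes of each list between old and young mice (left) and between old-OSKM and old mice (right), from limma, with red lines at the median and blue points at a raw p under 0.05. The median of the 10 enzymes was 0.00 and 0.05, and that of the 17 proliferation genes -0.37 and 0.39.

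Purine synthesis and proliferation genes were set beside the enzymes for comparison. Of 13 purine genes, Adssl1, an adenylosuccinate synthetase known from muscle, was higher in old than in young mice by 0.56 (1.47-fold, adjusted p = 0.26, limma), with no overlap, and the other 12 did not pass a raw p of 0.05. Atic differed by -0.14 with age (adjusted p = 1.0, limma), and between old-OSKM and old mice Prps1 differed by -0.18 and Adssl1 by -0.16 (both with an adjusted p of 0.61 by limma). Median differences were 0.00 with age and -0.08 between old-OSKM and old. The latter became 0.07 without old-OSKM mouse 4, and Prps1 and Adssl1 differed by -0.07 and -0.09.

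Of 17 proliferation genes, 15 had a lower mean in old than in young mice and 4 of them had a raw p under 0.05, beside 2.52% of all genes lower at that p. Ccne1, cyclin E1, differed by -0.64 (adjusted p = 0.12, limma), the one gene of the list past the study's thresholds, and Mcm6, of the replicative helicase, by -0.62 (adjusted p = 0.74, limma). Between old-OSKM and old mice 16 of 17 had a higher mean and 6 a raw p under 0.05, beside 3.98% of all genes, with a median of 0.39. Mcm5 was higher by 1.02 (adjusted p = 0.55, limma), past the study's thresholds, and Mcm6 by 0.72 (adjusted p = 0.55, limma). Without old-OSKM mouse 1 the median was 0.24 with 3 of 17 at a raw p under 0.05, beside 4.44% of all genes in either direction, and without mouse 4 it was 0.59 with 8 of 17, beside 6.23%. Mcm5 was 0.74 higher without mouse 1 (adjusted p = 0.77, limma) and no longer past the study's thresholds, which it also missed without old-OSKM mouse 2 or without old mouse 3, 4 or 5. The median of the 10 enzymes with all mice, 0.05, was smaller, and the difference between the lists was not tested.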

How the data were processed

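Gene expression was measured in the pancreas of 13 mice, with 1 library of rRNA-depleted RNA per mouse. Paired-end reads were aligned by the authors to mm10 with STAR 2.3.0e, RPKM per isoform was estimated with the R package Casper and summed per Entrez gene, and reads mapping to 5 or more locations were excluded. The deposited values are log2 RPKM after quantile normalization by the authors, so that sorted values were alike in all mice, with a largest difference of 0.0116. No read totals per mouse are in the table, so the methods' correction by total reads was not made and no counting error can be given.

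The values were used as deposited, with no pseudocount or filter, for all 23366 genes. The 3 groups were compared in 1 fit in limma 3.58.1 (R 4.3.3; lmFit, then eBayes; two-sided), with Benjamini-Hochberg adjustment over all genes. The study calls a gene at a raw p under 0.01 with over 1.5-fold change, and counts at a raw p under 0.05 are given beside the same share of all genes. Mice are separate animals. Single genes and ratios of genes were tested by two-sided exact permutation tests, and correlations over mice with 100000 permutations.

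The members, the pathway, comparison and marker lists and the rule for named genes were chosen with earlier results of these data known. All 10 members and 5 paralogs are named, the 2 genes of each list with the smallest raw p between old and young and the 2 between old-OSKM and old, any list gene past the study's thresholds, and the 3 genes most alike to each member, of which 1 is not reported here. Names, positions and promoters are from RefSeq (GRCm38.p6). The fit was tested on simulated data. Alternatives were a repeated quantile normalization, median centring, a filter at a mean log2 RPKM of 0, pseudocounts of 0.1 and 1, 2 groups alone, trend and robust eBayes, 2 covariates (the run of sample identifiers, and the mean z-score of all genes in each mouse), the mice of the 3 later identifiers left out, and each mouse left out in turn. The last was added for pairs of genes after the data were seen.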

Additional observations from a re-analysis of the deposited data

Results flagged for a closer look

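In groups of 4 or 5 mice, a value was marked when its gap to the nearest other mouse was a large share of the whole range of its group (Dixon's test), which chance alone does in about 1 in 20 groups. Of 45 groups tested, 30 of single enzymes and 15 of ratios, 4 were marked. Dhodh in young mouse 2 was -0.01 log2 RPKM, above the -0.22 to -0.26 of the other young mice, with a gap of 0.847 of the range. Without that mouse the difference between old and young was -0.26 by limma. Rrm2 in old-OSKM mouse 4 was -1.78, against 0.46 to 0.78 in the rest of its group, a share of 0.872. The ratio of Rrm1 to Rrm2 in the same mouse was 1.35 on the log2 scale, a share of 0.835, and the ratio of Uck2 to Uck1 there was 1.90, against 2.75 to 2.88 in the other 3 mice, a share of 0.870. That library also stood apart over all genes, with 469 genes more than 2-fold from the rest of its group, and what sets it apart was not tested.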

How the results depend on the processing

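Read totals per mouse are not in the table, so how precision differs between mice is unknown. No paired analysis was possible because replicate numbers were given in accession order and pair no mice. Repeated quantile normalization and median centring left every count of members called as it was. The deposited values were already quantile normalized, so neither step could change much and neither tests the normalization. Dhodh between old and young kept its sign with each mouse left out and under each alternative other than the filter at a mean log2 RPKM of 0, which removes it, with a raw p from 0.003 to 0.016 by limma or exact permutation, and so did Tk1 between old-OSKM and young mice, which the filter also removes, with 0.0019 to 0.048. The filter removes the called members Dhodh, Tk1 and Tyms and the called pathway gene Nme7, so the calls of these genes were not retested under it. The cause of the other changes below was not tested.

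Members called between old and young (1) became 0 among genes with a mean above 0, a filter that leaves 4 members, and 2 with the 2 groups alone or by exact permutation. Between old-OSKM and old (2) they became 0 with that filter, the 2 groups alone, the run of identifiers as a covariate or exact permutation, and 1 with trend and robust eBayes or without the 3 later identifiers. With the global signature as a covariate the count stayed at 2, but the members called were Dhodh and Tyms. Tk1 then differed by 0.29 and was no longer called. Between old-OSKM and young (1) the members called became 0 with the filter. Pathway genes called between old and young (1) became 0 with the filter, 2 with a pseudocount of 0.1 or 1 and 4 with the 2 groups alone. Between old-OSKM and old (2) they became 1 with the filter or with the global signature as a covariate.

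Leaving out each mouse in turn gave 1 to 2, 0 to 3 and 1 to 3 members called in the 3 comparisons (old against young, old-OSKM against old, old-OSKM against young), and 1 to 2, 0 to 4 and 1 to 5 pathway genes. The median of the members between old-OSKM and young ranged from -0.13 to 0.16. Correlated pairs ranged from 0 to 9, with 9 without old-OSKM mouse 1 and 0 without mouse 4.

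Small differences changed sign. Cad between old and young (0.001) became -0.0036 with a pseudocount of 1, -0.06 with the run as a covariate, -0.02 with the global signature and -0.12 without the later identifiers. Against old, Cad in old-OSKM mice (0.02) became -0.02 with the run and -0.0031 without those mice, and against young (0.02) it became -0.09 and -0.13. Dut between old and young (0.03) became -0.05 with the run. With the global signature, Umps became 0.06 against old and 0.03 against young, and Rrm2 0.24 and 0.14, in place of negative values. With single mice left out, old minus young ranged from -0.11 to 0.14 for Cad, -0.06 to 0.03 for Umps, -0.09 to 0.02 for Rrm2, -0.10 to 0.04 for Dck, -0.05 to 0.14 for Dut and -0.01 to 0.05 for Uck2. Old-OSKM minus old ranged from -0.11 to 0.20 for Cad, -0.14 to 0.02 for Umps, -0.04 to 0.20 for Rrm1 and -0.50 to 0.36 for Rrm2. Old-OSKM minus young ranged from -0.11 to 0.20 for Cad, -0.15 to 0.02 for Umps, -0.03 to 0.15 for Tyms, -0.55 to 0.31 for Rrm2 and -0.03 to 0.17 for Dck.

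Over all genes, those past the study's thresholds numbered 207, 176 and 146 in the 3 comparisons. They were 44, 35 and 19 with the filter, 116, 77 and 76 with a pseudocount of 0.1, and 16, 2 and 8 with a pseudocount of 1. With the global signature the second was 90. Leaving out single mice gave 175 to 280, 94 to 338 and 121 to 253.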
